A study of Mus musculus with 7 samples.

Results

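Circadian clock genes were followed in the growth plates of B6 × CAST F1 mice: *Arntl*, *Clock*, *Per1*, *Per2*, *Per3*, *Cry1*, *Cry2*, *Nr1d1*, *Nr1d2* and *Dbp*. They were chosen by symbol, from what is known of the mammalian clock, and all 10 were found among the 43346 genes of the deposited tables. The mice were 7 males of 1 condition, C57BL/6JxCAST/EiJ F1, aged 21 days, with no treatment given in the labels, and they carry the mouse numbers 1, 2, 3, 4, 5, 7 and 8. RNA came from the proximal and distal tibial growth plates, the cartilage discs at which the tibia grows in length. Since each F1 mouse holds 1 chromosome set from C57BL/6J (B6) and 1 from CAST/EiJ (CAST), counts for the 2 alleles of a gene came from the same cells, while the total of both alleles could differ between mice. The direction of the cross and the time of day at which each mouse was killed are not stated in the sources used here. Counts of the X-linked gene *Rbm3* were nearly all B6 in these males (means of 4574 B6 and 2.90 CAST counts), as with B6 mothers. With B6 mothers the B6 allele is also the maternal allele. Strain and parent of origin then cannot be told apart in any allele difference given below.

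In the mammalian clock, the proteins of *Arntl* (BMAL1) and *Clock* pair up and switch on genes through DNA sites called E-boxes. Among these genes are the *Per* and *Cry* genes, whose proteins return to the nucleus and repress that pair, and *Nr1d1* and *Nr1d2* (REV-ERBα and REV-ERBβ), which repress *Arntl* through RORE sites. *Dbp*, an output gene, encodes an activator that binds D-boxes, and in most tissues its RNA peaks at nearly the opposite time of day from *Arntl* RNA. Growth plate chondrocytes, like most cells of the body, hold such a clock.

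The sites that these proteins bind were looked for in RefSeq promoter windows (GRCm38.p6) of 300 bases, from 250 before to 50 after an annotated start. The table held 13 windows for 9 of the 10 genes and none for *Per2*. The 4 motifs, searched on both strands, were the E-box CACGTG, the D-box TTATGTAA, the RORE TAGGTCA and the cAMP response element TGACGTCA. No motif overlapped another in the matches shown, which are given because they tie the members to each other. Capitals mark the motif and each line reads 5′ to 3′ on the strand of the gene.
Per3, chr4:151044805-151044834, minus strand: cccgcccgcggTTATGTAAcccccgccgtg
Per3, chr4:151044852-151044881, minus strand: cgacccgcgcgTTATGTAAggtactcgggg
Cry1, chr10:85185097-85185126, minus strand: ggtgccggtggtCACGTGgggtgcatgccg
Per1, chr11:69098771-69098800, plus strand: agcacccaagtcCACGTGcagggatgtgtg
Arntl, chr7:113207530-113207559, plus strand: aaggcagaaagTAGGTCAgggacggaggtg

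*Per3*, with 2 D-boxes, was the only one of the 9 members with a D-box, which was found for 1.11% of the 27025 genes of the table and in 0.938% of its 32851 windows. The E-box was found for 2 of the 9 members, *Per1* and *Cry1*, and for 8.09% of all genes (7.15% of windows). The *Per1* windows began at 69098699 and 69099902, inside the gene as annotated below from 69095217. They did not cover that outermost start. A RORE was found for *Arntl* alone among the 9, and for 2.97% of all genes (2.61% of windows). The cAMP response element was found for 0 of the 9 members and for 2.03% of all genes (1.79% of windows). Such a match is a description of the letters and not evidence of binding.

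All 10 members had at least 10 counts in every mouse, which held for 15111 genes in all (called well-counted genes from here on). Depth ran from 14098019 counts in mouse 7 to 37849667 in mouse 5. All 9 chondrocyte markers were detected, and together they took 61537 to 110708 counts per 1000000 counts (CPM), with library sizes scaled by the TMM method. Markers of other cells were detected too. The 5 osteoblast genes summed to 71711 to 130352 CPM, mostly from *Col1a1* and *Col1a2*, a range that overlapped that of the chondrocyte markers. Summed levels were 7599 to 18621 CPM for 5 erythroid genes, 1372 to 2750 for 5 neutrophil genes and 3360 to 6361 for 6 skeletal muscle genes. In such bulk RNA, fewer cells of a type and less RNA per cell cannot be told apart.

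The annotation places each member on GRCm38/mm10. *Arntl* (ENSMUSG00000055116) lies on chromosome 7 from 113207465 to 113314126, and *Clock* (ENSMUSG00000029238) on chromosome 5 from 76209868 to 76304792. *Per1* (ENSMUSG00000020893) lies on chromosome 11 from 69095217 to 69109960, *Per2* (ENSMUSG00000055866) on chromosome 1 from 91415982 to 91459324, and *Per3* (ENSMUSG00000028957) on chromosome 4 from 151003652 to 151044665. *Cry1* (ENSMUSG00000020038) lies on chromosome 10 from 85131700 to 85185064 and *Cry2* (ENSMUSG00000068742) on chromosome 2 from 92403646 to 92434043. *Nr1d1* (ENSMUSG00000020889) lies on chromosome 11 from 98767932 to 98775333, *Nr1d2* (ENSMUSG00000021775) on chromosome 14 from 18204054 to 18239127, and *Dbp* (ENSMUSG00000059824) on chromosome 7 from 45705088 to 45710203. No member is on the X chromosome, so both alleles of each can be used in these males.

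Some members share sequence with a neighbour. Exons of *Dbp* overlap those of *Sphk2* on the opposite strand over 539 bp, 18.0% of the *Dbp* exons, and *Sphk2* averaged 677 counts per mouse. Exons of *Nr1d1* overlap those of *Thra* over 263 bp, or 8.55%, and *Thra* averaged 1489 counts. Exons of *Cry2* overlap D930015M05Rik over 295 bp, or 4.67%. The totals of *Dbp*, *Nr1d1* and *Cry2* were not whole numbers in any of the 7 mice, and that of *Per3* was not whole in 3, which marks reads divided between genes. Whether strand was used in counting is not given in the sources used here, so the values of these genes are less certain than those of the other 6, whose totals were whole in every mouse.

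Levels were compared between members as CPM per kb of exon, since longer genes collect more reads. *Dbp* was the most abundant member at 15.5 ± 2.75 (SD, n = 7), followed by *Nr1d1* at 12.1 ± 3.28 and *Per1* at 11.4 ± 2.43. On the same scale *Nr1d2* stood at 8.37 ± 1.20, *Per3* at 5.35 ± 0.708, *Cry2* at 5.04 ± 0.468, *Per2* at 4.18 ± 0.527 and *Cry1* at 3.10 ± 0.431. *Clock* at 1.20 ± 0.182 and *Arntl* at 0.723 ± 0.179 were the lowest. On this scale the activators of the loop were below its repressors and *Dbp* in every mouse. For *Clock* this rests on its exon length of 13.7 kb, since in plain CPM it was above *Cry1*, at 16.4 against 10.4 on average.

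The order of neighbours was the same in all 7 mice for *Nr1d2* above *Per3*, *Per2* above *Cry1*, *Cry1* above *Clock* and *Clock* above *Arntl*. *Dbp* was above *Nr1d1* in 5 mice, *Nr1d1* above *Per1* in 3 mice and *Per1* above *Nr1d2* in 6 mice. *Per3* was above *Cry2* in 5 mice and *Cry2* above *Per2* in 6. *Dbp*, *Nr1d1* and *Per1* therefore had no fixed order within the spread between mice, and neither did *Per3* and *Cry2*.

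**Figure D1:**
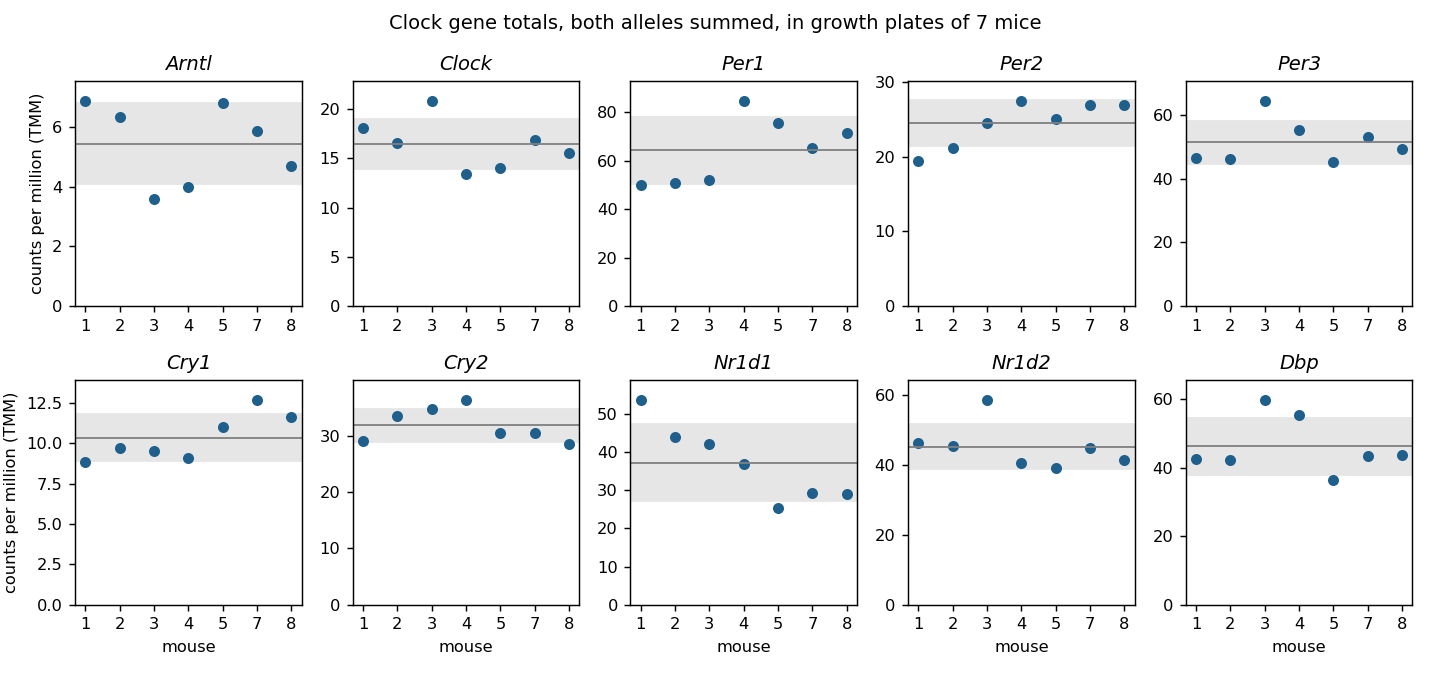
Total CPM, with both alleles summed, for each clock gene (vertical axis, from 0 in each panel) in each mouse (horizontal axis). The line and the grey band give the mean and 1 SD over 7 mice. Mice 3 and 4 were lowest in *Arntl* and highest in *Dbp* and *Per3*, and mice 1, 2 and 3 were lowest in *Per1*.

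*Arntl* RNA came mainly from the B6 allele. Here and for the members below, strain and parent of origin cannot be told apart. B6 counts ran from 57.6 to 211 between mice with a median of 78.0, and CAST counts from 16.4 to 70.8 with a median of 30.0. In each of the 7 mice the B6 count was the higher, and the CAST share of counts was 24.0% ± 4.25 (SD, n = 7), with 19.4% in mouse 7 and 30.9% in mouse 1 as its extremes. The log2 ratio of CAST to B6 averaged -1.66 ± 0.32, or 3.17 times as many B6 as CAST counts, with p = 0.0156 by exact permutation of signs (two-sided), the smallest that 7 mice can give. In edgeR's likelihood-ratio test across 20034 genes the log2 fold change was -1.63 (FDR = 2.77e-13), and in a quasi-likelihood test blocked by mouse it was -1.64 (FDR = 8.49e-05).

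The size of this difference was uncommon among other genes. Of the 14526 well-counted autosomal genes, 97.0% had a smaller absolute log2 fold change than *Arntl*. Among the 436 at least as large, 206 had the B6 allele higher, and 114 of these were among the 13094 protein-coding genes. *Arntl* had the fewest counts of the members, 149 ± 76.1 (SD, n = 7) per mouse. The SD of its log2 ratio was 0.32, beside the 0.31 that counting error would give if every count were an independent read. Allele counts include reads that fit both alleles, so such a counting SD is a description.

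*Clock*, the partner of *Arntl*, varied the most in allele ratio. Its B6 counts ran from 107 to 312 with a median of 284 and its CAST counts from 87.4 to 302 with a median of 188. The log2 ratio was -0.84 in mouse 7 and 0.40 in mouse 4, with the B6 allele higher in 6 of 7 mice and nearly equal counts in mouse 1. The mean was -0.28 ± 0.41 (SD, n = 7; exact permutation p = 0.109). The SD stood beside a counting SD of 0.15, which again takes every count as an independent read and is a description. It was above that of 87.4% of genes with like counts, meaning a mean count within a factor of 2. In edgeR's likelihood-ratio test the log2 fold change of *Clock* was -0.26 (FDR = 0.216), and with the mouse as a block the FDR was 0.153 in that test and 0.235 in the quasi-likelihood test. The unpaired FDR of *Clock* passed the threshold of 0.20 without mouse 1 (0.180), mouse 3 (0.144) or mouse 4 (0.0705), and it was 0.345 to 0.536 without one of the others.

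Among the repressors, *Per3* and *Cry2* had small B6 excesses that recurred in every mouse. *Per3* had 399 to 975 B6 counts with a median of 757 and 372 to 863 CAST counts with a median of 560. Its CAST share was 45.6% ± 2.20 (SD, n = 7), its mean log2 ratio -0.25 ± 0.13 and its exact permutation p = 0.0156. In edgeR's likelihood-ratio test the log2 fold change of *Per3* was -0.23 (FDR = 0.111), but the call was lost without mouse 2 (FDR = 0.258), mouse 5 (FDR = 0.201) or mouse 8 (FDR = 0.259). Blocked by mouse, its FDR was 0.00835 in the quasi-likelihood test, and 0.0116 to 0.0328 with a mouse left out in turn.

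*Cry2* had 228 to 623 B6 counts with a median of 505 and 213 to 571 CAST counts with a median of 438. The B6 count was the higher in each of the 7 mice, with a CAST share of 46.8% ± 2.02 (SD, n = 7), a mean log2 ratio of -0.18 ± 0.12 and an exact permutation p = 0.0156. The call changed with the pairing of alleles within a mouse. Its log2 fold change of -0.17 had an FDR of 0.223 in edgeR's likelihood-ratio test without pairing, and with the mouse as a block the FDR was 0.000933 in that test and 0.0258 in the quasi-likelihood test. With 1 library size for both alleles of a mouse the unpaired FDR of *Cry2* was 0.166, and without mouse 4 it was 0.1998.

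The other 6 members had mean allele ratios nearer to equal. *Per1* had a mean log2 ratio of 0.11 ± 0.18 with the CAST allele higher in 5 mice, and *Per2* one of 0.09 ± 0.17 with the CAST allele higher in 6 mice. *Cry1* stood at -0.12 ± 0.27, *Nr1d1* at 0.05 ± 0.14, *Nr1d2* at -0.01 ± 0.23 and *Dbp* at 0.00 ± 0.17 (SD, n = 7 for each). In edgeR's likelihood-ratio test the FDR of these genes ran from 0.621 for *Per2* to 1 for *Nr1d2*. *Per1* was called with the mouse as a block in that test (FDR = 0.158) but not in the quasi-likelihood test (FDR = 0.227). With a mouse left out, the blocked quasi-likelihood test called *Per2* without mouse 3 (log2 fold change 0.16, FDR = 0.0143), *Per1* without mouse 4 (FDR = 0.133) or mouse 7 (FDR = 0.191), and *Nr1d1* without mouse 8 (FDR = 0.118).

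In all, 2 of the 10 members, *Arntl* and *Per3*, were called at an FDR under 0.20 in the likelihood-ratio test, both with the B6 allele higher, beside 34.7% of all genes tested and 18.6% with the B6 allele higher. With the mouse as a block, 3 members were called by the quasi-likelihood test, *Cry2* in addition, beside 40.7% of all genes and 21.3% with the B6 allele higher. The blocked likelihood-ratio test called 5, beside 45.6% of all genes, and of these *Arntl*, *Per3*, *Cry2* and *Clock* had the B6 allele higher (23.7% of all genes) and *Per1* the CAST allele (21.9%). The B6 allele was higher in all 7 mice for 3 members and for 14% of all genes, where 24.6% had the same allele higher throughout. The number of members called was not above the share over all genes in the unpaired test. These shares include X-linked genes such as *Rbm3*, with means of 4574 B6 and 2.90 CAST counts, while every member is autosomal. Shares over autosomal genes alone are not given. The median log2 fold change was -0.05 over the members and 0.01 over all genes tested.

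**Figure D2:**
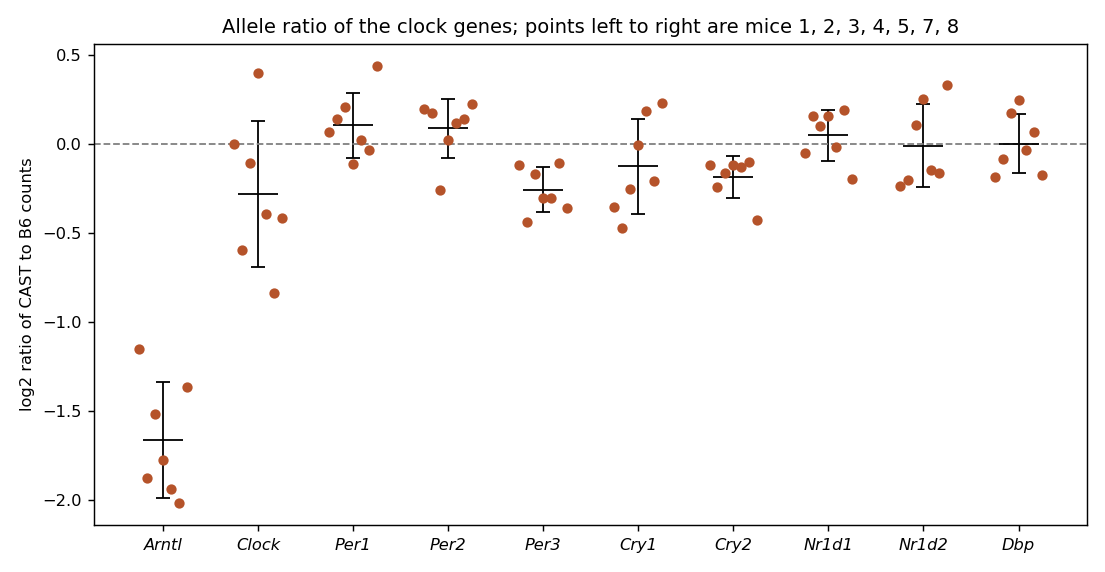
The log2 ratio of CAST to B6 counts (vertical axis) of each clock gene (horizontal axis), with 1 point per mouse, the mean as a bar and 1 SD over 7 mice as whiskers. The dashed line at 0 marks equal counts. *Arntl* lies below -1.1 in every mouse, *Per3* and *Cry2* lie just below 0 in every mouse, and *Clock* has the widest spread.

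Totals of both alleles were then compared between mice, as the SD over 7 mice of log2 CPM. *Nr1d1* varied the most, from 25.5 CPM in mouse 5 through a median of 37.0 to 53.6 in mouse 1, a 2.11-fold range with an SD of 0.39. *Arntl* ran from 3.57 in mouse 3 through 5.86 to 6.84 in mouse 1, a 1.92-fold range with an SD of 0.38. *Per1* ran from 50.1 in mouse 1 through 65.4 to 84.4 in mouse 4, a 1.68-fold range with an SD of 0.31. These 3 genes cover the repressor of *Arntl*, *Arntl* itself and the *Per* gene best known for answering outside stimuli.

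*Dbp* ran from 36.5 to 59.8 CPM with an SD of 0.25, *Clock* from 13.4 to 20.7 with an SD of 0.22 and *Nr1d2* from 39.3 to 58.6 with an SD of 0.19. *Per2* ran from 19.4 to 27.4, *Per3* from 45.0 to 64.1 and *Cry1* from 8.85 to 12.7, with SDs of 0.18 to 0.20. *Cry2* varied the least, from 28.6 to 36.3, a 1.27-fold range with an SD of 0.13. Against genes with like counts, *Nr1d1* was more variable than 97.0%, *Per1* than 93.1%, *Arntl* than 89.4% and *Dbp* than 85.8%. *Cry2* was more variable than 37.1%, and it was the only member below the median of such genes. The median SD was 0.21 over the members and 0.19 over all well-counted genes.

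The spread of the total was set beside that of the allele ratio. The SD of the total exceeded the SD of the log2 ratio in 7 of 10 members, and in 32.5% of well-counted autosomal genes. Among autosomal genes with a mean count in the range of the members, 32.7% had the larger SD in the total. That range is wide, so this share is not matched to the count of each member. Among genes with like counts, the median SDs of total and ratio were 0.153 and 0.137 for *Per1*, 0.153 and 0.167 for *Nr1d1*, and 0.215 and 0.386 for *Arntl*. The excess was widest for *Nr1d1*, with an SD of 0.39 in its total and 0.14 in its ratio, followed by *Per1* with 0.31 and 0.18. *Clock*, *Cry1* and *Nr1d2* were the exceptions. With a mouse left out in turn, 5 to 8 members had the larger SD in the total. The ratio carries the counting error of both alleles, so a gene with few counts has the larger SD in its ratio more readily. For the exceptions, the SD of the ratio and its counting SD were 0.41 and 0.15 for *Clock*, 0.27 and 0.18 for *Cry1*, and 0.23 and 0.09 for *Nr1d2*. Why these members differ was not tested.

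**Figure D3:**
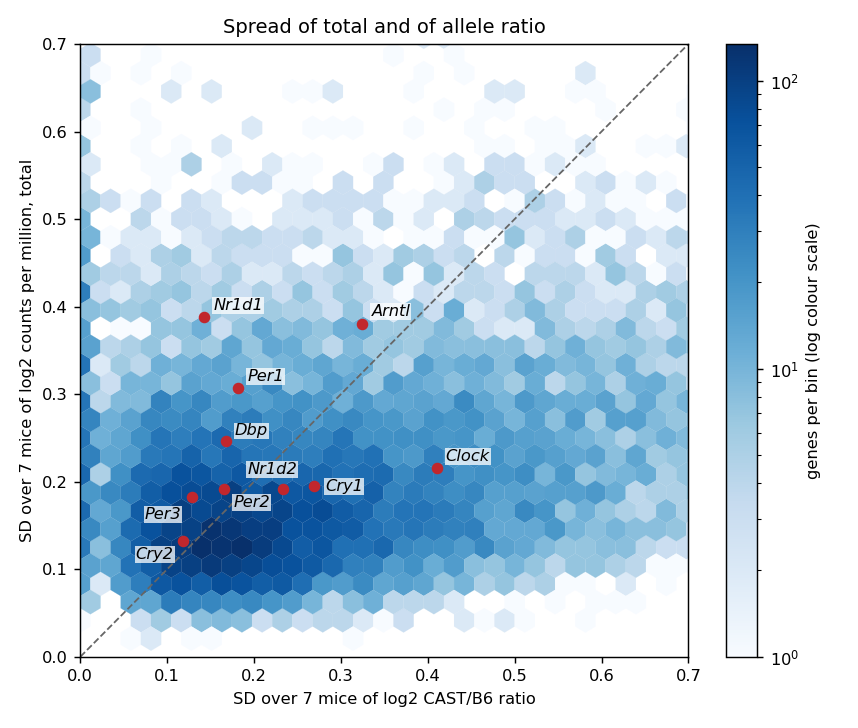
For each well-counted autosomal gene, the SD over 7 mice of the log2 ratio of CAST to B6 counts (horizontal axis) and of the log2 CPM of the total (vertical axis), as shaded bins, with the clock genes as points and equal SDs as the dashed line. *Nr1d1*, *Arntl*, *Per1*, *Dbp*, *Per3*, *Per2* and *Cry2* lie above the line, and *Clock*, *Cry1* and *Nr1d2* lie below it.

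The alleles of a mouse moved together in some members. For *Nr1d1* the CAST level correlated with the B6 level across the 7 mice with r = 0.94 (exact permutation p = 0.00238, q = 0.0243 over 15111 genes) and rho = 0.96 (exact permutation p = 0.00278), and without the 2 mice farthest from the median B6 level r was 0.88. For *Dbp* r was 0.88 (exact permutation p = 0.00615, q = 0.0466) and rho was 0.75 (exact permutation p = 0.0663), with r = 0.75 without the 2 farthest mice. *Per1* with r = 0.85 (exact permutation p = 0.0236, q = 0.113) and *Per3* with r = 0.81 (exact permutation p = 0.0254, q = 0.119) were called as well. This made 4 of 10 members at an FDR under 0.20, beside 28.6% of well-counted genes.

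The median r of the CAST and B6 levels was 0.70 over the members and 0.36 over those genes. Reads divided between alleles, and the library size that both alleles of a mouse share, can raise this r in any gene. The well-counted genes were not matched to the members in count or in spread between mice. Among them, the r of the members stood at percentiles from 34.0 for *Clock* to 89.9 for *Nr1d1*. *Clock* was the lowest member at r = 0.06. Of all these genes, 69.3% had an r above 0. The log2 ratio itself was not called as related to the total in any of the 10 members by the exact permutation test, beside 0% of all genes. At an unadjusted p under 0.05 it was 0 of 10 members and 5.52% of genes, and *Dbp* came nearest with r = 0.73 (exact permutation p = 0.0635, rho = 0.54), or -0.24 without the 2 farthest mice.

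*Dbp* and *Per3* ran opposite to *Arntl* from mouse to mouse. Mice 3 and 4 had the lowest *Arntl* levels, 3.57 and 3.99 CPM, and the highest *Dbp* levels, 59.8 and 55.5, and the highest *Per3* levels, 64.1 and 55.3. In the other 5 mice *Arntl* ran from 4.68 to 6.84, *Dbp* from 36.5 to 43.8 and *Per3* from 45.0 to 53.1. *Cry2* was highest in these mice too, at 34.7 and 36.3 against 28.6 to 33.4. Mice 3 and 4 were singled out by these same values, so the gap is a description, and totals of 10.1% of all genes tested likewise set both mice above or both below the other 5.

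Across the 7 mice, log2 *Dbp* correlated with log2 *Arntl* with r = -0.91 (exact permutation p = 0.00119) and rho = -0.89 (exact permutation p = 0.0123). Log2 *Per3* correlated with log2 *Arntl* with r = -0.88 (exact permutation p = 0.00972) and rho = -0.86 (exact permutation p = 0.0238). Log2 *Per3* correlated with log2 *Dbp* with r = 0.92 (exact permutation p = 0.000595) and rho = 0.96 (exact permutation p = 0.00278). Without mice 3 and 4, the farthest from the median *Arntl* level, r was -0.55 for *Dbp* and -0.56 for *Per3*, and without the 2 mice farthest from the median *Dbp* level r was 0.64 for *Per3* with *Dbp*. The 3 relations thus rested largely on those mice. Their p-values span the gap between those mice and the others, and they are not adjusted for the number of member pairs read. They are given as a description.

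None of the 3 relations passed a test over all genes. With the *Arntl* level as covariate in edgeR's quasi-likelihood test, the slope of *Dbp* was -0.59 and that of *Per3* -0.43 in log2 units per log2 unit, each with an FDR of 0.830. The slopes were -0.36 and -0.21 without TMM scaling, and both were -0.25 without mice 3 and 4. By that test 0 of the 9 other members were called, beside 0.00499% of 20033 genes. At an unadjusted p under 0.05, 2 of the 9 members and 5.63% of genes were counted, and the exact permutation test of r called 0 genes at an FDR under 0.20. With the *Dbp* level as covariate 0 of 9 members were called, beside 0% of genes, and at an unadjusted p under 0.05 the counts were 2 of 9 and 6.77% (*Per3*, slope 0.68, FDR = 0.610). The 42 marker genes of other cell types and of chondrocytes gave 0 calls with *Arntl* and 0 with *Dbp*, and 4 and 6 at an unadjusted p under 0.05. B-lineage genes made up 4 of those in each case, and the summed level of the 5 genes of that list was lowest in mice 3 and 4, at 128 and 181 CPM against 198 to 308 in the other mice. Among genes known to answer stimuli, an unadjusted p under 0.05 was reached by 3 of 8 immediate early genes and 2 of 5 glucocorticoid targets with *Arntl*, and 4 of 8 and 3 of 5 with *Dbp*, though 0 of them at an FDR under 0.20. The 8 immediate early genes summed to 104 and 146 CPM in mice 3 and 4 and to 71.0 to 103 in the other mice. The 5 glucocorticoid targets summed to 305 and 373 CPM in mice 3 and 4 and to 423 to 626 in the other mice. *Tsc22d3* had the highest mean of them, 251 CPM, and the list did not move as one. Slopes with *Arntl* were 1.40 for *Fkbp5*, 1.12 for *Zbtb16* and 0.38 for *Tsc22d3*, but -0.11 for both *Sgk1* and *Klf9*. The part of these gene lists in the result was not tested.

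*Per1* and *Nr1d1* split the mice another way. Mice 1, 2 and 3 had 50.1, 50.7 and 52.0 CPM of *Per1*, and mice 4, 5, 7 and 8 had 84.4, 75.6, 65.4 and 71.2. For *Nr1d1* the first 3 mice had 53.6, 44.0 and 42.3, and the other 4 had 37.0, 25.5, 29.2 and 29.1. *Per2* was lower in mice 1, 2 and 3, at 19.4 to 24.5 against 25.1 to 27.4, and *Nr1d2* higher, at 45.6 to 58.6 against 39.3 to 45.0. These 4 of 10 members separated the 2 sets of mice, beside 15.2% of all genes tested, and the sets were drawn from these same values. No correlation between these members is given across the 2 sets of mice. The slopes that follow were fitted over all 7 mice, so they span the gap between the sets and were not tested within them.

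With the *Per1* level as covariate, a test added after the values were seen, *Nr1d1* fell with a slope of -0.91 (edgeR's quasi-likelihood test, FDR = 0.151) and *Clock* fell with a slope of -0.61 (FDR = 0.163). These 2 of 9 members stood beside 7.95% of 20033 genes, and *Per2*, with a slope of 0.50, had an FDR of 0.201. At an unadjusted p under 0.05 the counts were 4 of 9 members and 16.3% of genes. Neither call was stable. The FDR of *Nr1d1* ran from 0.0345 to 0.469 with a mouse left out, the call being lost without mouse 1, 3, 5 or 8, and that of *Clock* ran from 0.120 to 0.358, the call being lost without mouse 1, 3, 4, 5 or 8. Without TMM scaling the FDR was 0.241 for *Nr1d1* and 0.443 for *Clock*. The number of genes called ran from 1 to 1894 with a mouse left out, against 1593 with all 7, and the exact permutation test of r called 0.

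Markers of several cell types split the mice in the same way. The 5 erythroid genes summed to 7599 to 8977 CPM in mice 1, 2 and 3 and to 11855 to 18621 in mice 4, 5, 7 and 8. The 5 neutrophil genes summed to 1372 to 1492 and to 1948 to 2750. All 5 erythroid and all 5 neutrophil genes rose with *Per1* and fell with *Nr1d1* in edgeR's quasi-likelihood test at an FDR under 0.20, beside 7.95% and 4.07% of all genes called with each. With *Nr1d1* as covariate 816 genes were called with all 7 mice and 0 to 1977 with a mouse left out, and the exact permutation test of r called 0. The 4 endothelial genes summed to 211 to 225 in mice 1, 2 and 3 and to 167 to 186 in the others, and 2 of them fell with *Per1*. The 5 osteoblast genes summed to 98134 to 130352 and to 71711 to 97614, with 0 of 5 called with *Per1* and 1 of 5, *Bglap2*, falling with *Nr1d1*. That sum came mostly from *Col1a1* and *Col1a2*, with means of 46553 and 44721 CPM against 1627 for *Bglap*, 374 for *Bglap2* and 283 for *Ibsp*. The list did not move as one. Slopes with *Nr1d1* were 0.88 for *Col1a1*, 0.53 for *Col1a2* and 0.13 for *Ibsp*, but -0.46 for *Bglap* and -0.63 for *Bglap2*. Of the 9 chondrocyte genes 1, *Matn3*, rose with *Per1* and fell with *Nr1d1*. The osteoclast gene *Ctsk* fell with *Per1*. The endothelial gene *Cdh5* rose with *Nr1d1*, and the B-lineage gene *Vpreb1* fell with it. Of the 42 marker genes, 14 were called with *Per1* and 14 with *Nr1d1*. The 7S and 7SK RNAs took 15.5% to 18.5% of counts in mice 1, 2 and 3 and 19.6% to 23.8% in the other 4. The part of these cells and RNAs in the *Per1* and *Nr1d1* values was not tested.

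*Nr1d2* kept step with *Clock*. With the *Clock* level as covariate, again added after the values were seen, *Nr1d2* rose with a slope of 0.84 (edgeR's quasi-likelihood test, FDR = 0.196) and *Per1* fell with a slope of -1.20 (FDR = 0.196), 2 of 9 members beside 1.15% of genes, and the same number beside 16% at an unadjusted p under 0.05. With a mouse left out the FDR of *Nr1d2* ran from 0.108 to 0.569 and that of *Per1* from 0.0809 to 0.411. The 231 genes called with *Clock* became 0 to 2023 with a mouse left out, and the exact permutation test of r called 0. Mouse 3 was highest in both *Clock* and *Nr1d2*, at 20.7 and 58.6 CPM, and mice 4 and 5 were lowest in both. With *Per2*, *Per3*, *Cry1*, *Cry2*, *Nr1d1* or *Nr1d2* as covariate, 0 members were called at an FDR under 0.20 by that test, beside 0.594% of genes for *Per2*, 4.07% for *Nr1d1*, 0.00998% for *Nr1d2* and 0% for the others. At an unadjusted p under 0.05 there were 3 of 9 members for *Nr1d1* (14.1% of genes), 2 each for *Per2* (10.9%), *Per3* (3.76%) and *Nr1d2* (13.2%), and 1 each for *Cry1* (10.8%) and *Cry2* (5.91%).

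**Figure D4:**
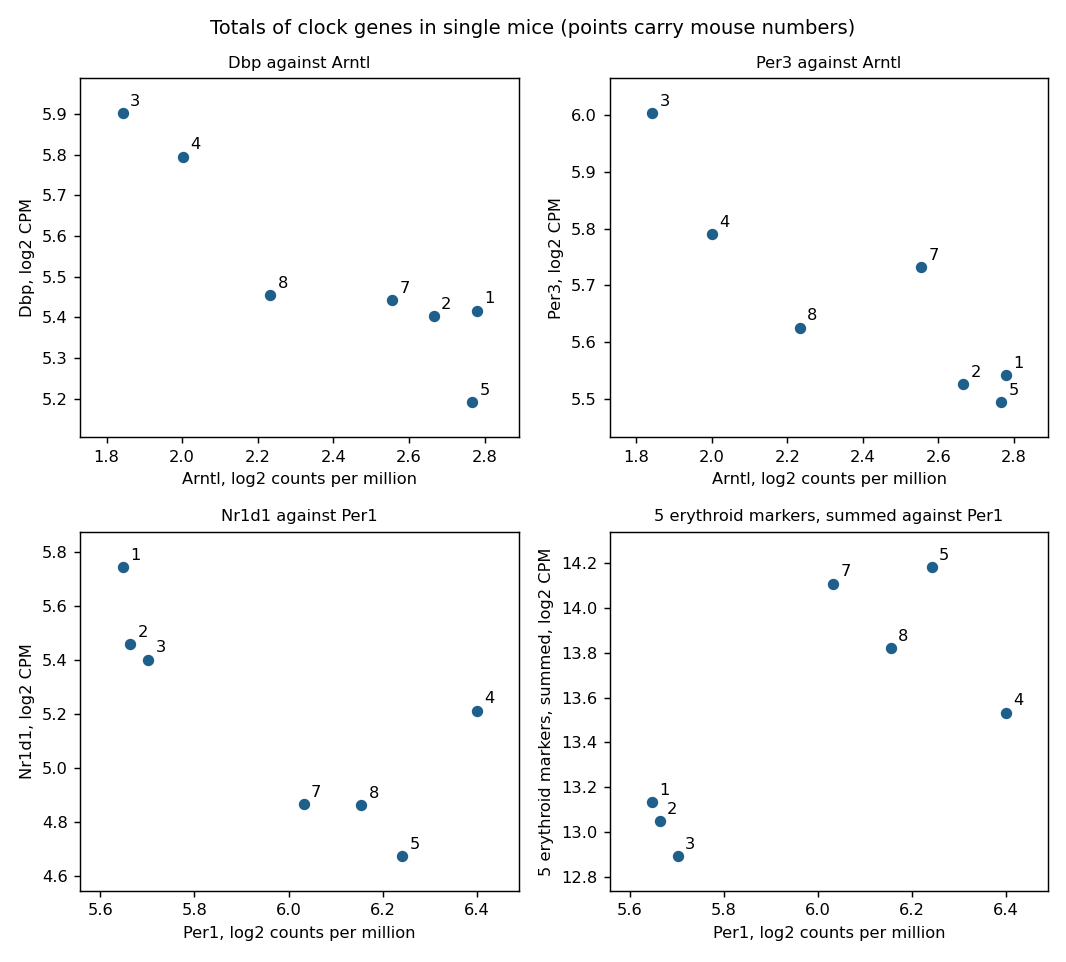
Log2 CPM of *Dbp* and *Per3* against *Arntl*, and of *Nr1d1* and the sum of 5 erythroid marker genes against *Per1*, with 1 point per mouse and its number beside it. Mice 3 and 4 stand apart in the upper panels, and mice 1, 2 and 3 stand apart from mice 4, 5, 7 and 8 in the lower panels.

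A further 24 genes of the clock and its outputs were all tested, and 5 were called between alleles, 4 with the B6 allele higher and 1 with the CAST allele higher, beside 18.6% and 16.1% of all genes. *Tef*, a relative of *Dbp* that also binds D-boxes, had 1808 ± 462 B6 and 1567 ± 467 CAST counts (SD, n = 7), the B6 allele being higher in 7 of 7 mice, with a log2 fold change of -0.21 (edgeR's likelihood-ratio test, FDR = 0.0754). *Timeless*, a relative of a fly clock gene with roles in DNA replication, had the CAST allele higher in 7 of 7 mice with a log2 fold change of 0.37 (FDR = 0.00239), though its total was not whole in 6 mice. *Arntl2*, a paralog of *Arntl*, had the B6 allele higher in 7 of 7 mice with a log2 fold change of -2.16 (FDR = 4.08e-08) at a mean of 21.0 counts. *Rorb*, which encodes an activator at RORE sites, had a log2 fold change of -2.60 (FDR = 0.00186) at a mean of 4.43 counts.

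The last of the 5, *Rbm3*, is X-linked, and males carry a single X chromosome. Blocked by mouse, edgeR's quasi-likelihood test called 5 genes with the B6 allele higher and 2 with the CAST allele higher, beside 21.3% and 19.3% of all genes, with *Cirbp* (FDR = 0.0807) and *Nampt* (FDR = 0.125) in addition. The paralog of *Clock*, *Npas2*, had equal allele counts in every mouse and was the only gene of this list that fell with *Per1* (slope -1.09, FDR = 0.163). Exactly equal counts are also what an even split of reads that fit both alleles gives, so its allele ratio is not read as balanced expression. With *Arntl* or *Dbp* as covariate 0 of the 24 were called, and 2 and 4 had an unadjusted p under 0.05, beside 5.63% and 6.77% of all genes. The median SD of their totals was 0.19.

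*Per1* is also known to answer acute stimuli and glucocorticoids, so 8 immediate early genes and 5 glucocorticoid targets were read as well. With *Per1* as covariate 0 of the 8 and 0 of the 5 were called by edgeR's quasi-likelihood test, beside 7.95% of all genes. At an unadjusted p under 0.05 the counts were 1 and 0, beside 16.3%. *Egr1*, an immediate early transcription factor, rose with *Nr1d1* (slope 1.06, FDR = 0.116), 1 of the 8 beside 4.07% of all genes. The median SD of totals was 0.44 over the immediate early genes and 0.42 over the glucocorticoid targets, and 0.21 over the clock members. *Fkbp5*, a chaperone gene switched on by glucocorticoids, ran from 22.2 to 89.0 CPM with an SD of 0.81. Between alleles, 0 of the 8 immediate early genes were called in the likelihood-ratio test, beside 34.7% of all genes. The blocked quasi-likelihood test called 2, beside 40.7%. Of the 5 glucocorticoid targets, the X-linked *Tsc22d3* had the B6 allele higher and *Klf9* the CAST allele (log2 fold change 0.25, edgeR's likelihood-ratio test, FDR = 0.189), beside 18.6% and 16.1% of all genes. The blocked quasi-likelihood test called 2 in each direction, beside 21.3% and 19.3%, with *Sgk1* (B6 allele higher, FDR = 0.0612) and *Fkbp5* (CAST allele higher, FDR = 0.0134) in addition.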

How the data were processed

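RNA of growth plates from 7 mice was depleted of ribosomal RNA and sequenced as stranded total RNA. The authors aligned reads with Bowtie against the transcripts of both parental strains (mm10) and used EMASE to obtain estimated counts for each allele of a gene, handling lanes and read ends one by one. These deposited estimated counts carry no normalization and can be fractional, since EMASE splits a read that matches both alleles or more than 1 gene. A sample's group and mouse number came from the labels.

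Gene names came from GENCODE M21, which holds 42462 of the 43346 identifiers. Values up to 1e-06 were taken as 0 and totals as whole to 0.0001. The 20034 genes with a count above 0 in every mouse were tested. Rounded allele counts were compared with edgeR 4.0.16 (R 4.3.3, limma 3.58.1), using TMM library sizes, glmFit and glmLRT, with Benjamini-Hochberg adjustment over all of them and the study's threshold of 0.20. Log2 ratios used a pseudocount of 0.5. CPM values (counts per 1000000) used TMM sizes and, on the log2 scale, a prior count of 0.5. Totals were related to a member's level with glmQLFit and glmQLFTest, and exact permutation tests were two-sided over all 5040 orders of the 7 mice or all sign flips. The number of relations behind each adjusted value is the number of genes tested. Because both alleles of a mouse were read from 1 library, the mouse pairs them. Deviations from the allele means correlated with a mean r of 0.06 within a mouse (-0.05 to 0.19) and -0.01 between mice (-0.21 to 0.17). Fits with the mouse as a block are printed where they change a call.

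Depth was 14098019 to 37849667 counts per mouse. Counting SDs cover counting error only and take every count as an independent read, though allele counts include reads that fit both alleles. The labels do not say whether the mice shared a litter, so p-values measure the spread between these mice. Library or sequencing batches are not given in the sources used here. No pair of libraries agreed within sampling noise. Alternatives were DESeq2 1.42.0, other library sizes, filters and thresholds, quasi-likelihood and blocked fits, other members as covariate, and each mouse left out in turn. The fits were tested on simulated data. The members and gene lists were chosen with earlier results of these data known. Named were all members, called genes of the other clock list, and the 5 protein-coding genes of highest and of lowest r with *Arntl* and *Dbp* among genes that reached 100 counts in every mouse. *Egr1*, *Fkbp5*, *Zbtb16*, *Sgk1*, *Tsc22d3*, *Klf9*, *Matn3*, *Ctsk*, *Cdh5* and *Vpreb1* were named after their values were seen.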

Additional observations from a re-analysis of the deposited data

Results flagged for a closer look

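In 20 sets of 7 values, the allele ratio and the total of each of the 10 members, a mouse far from the other 6 was found in 2 by Dixon's criterion, and chance alone gives about 1. The log2 ratio of CAST to B6 counts of *Per2* was -0.25 in mouse 3 and 0.03 to 0.22 in the other 6 mice. It was the only mouse with more B6 than CAST counts of *Per2*. The total of *Nr1d2* was 5.87 log2 CPM in mouse 3 and 5.30 to 5.53 in the other 6. Mouse 3 was also highest in *Clock*, *Per3* and *Dbp* and lowest in *Arntl*.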

How the results depend on the processing

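The 2 members called between alleles, *Arntl* and *Per3*, became 4 with DESeq2 and a mouse block, 4 with one library size per mouse, 5 with the mouse as a block in the likelihood-ratio test and 1 at an FDR under 0.05. With a mouse left out the number ran from 1 (without mouse 2, 5 or 8) to 4 (without mouse 4). *Arntl* was called with the B6 allele higher under each alternative run. The pairing of alleles within a mouse changed the call of *Cry2*, *Clock* and *Per1* in the likelihood-ratio test and of *Cry2* in the quasi-likelihood test. The sign of *Nr1d2* turned to -0.0029 with autosomal genes alone, -0.0103 with one library size per mouse, -0.0142 with that and the block, and ran from -0.0398 to 0.0465 with a mouse left out. That of *Dbp* ran from -0.00931 to 0.0723. Neither was called in any fit run. The median SD of the members' totals, 0.21, was 0.24 without TMM and 0.24 with 7S and 7SK left out. It ran from 0.20 to 0.22 with a mouse left out. Members related to the covariate numbered 0 for *Arntl*, 2 for *Clock* and 2 for *Per1*. The 4 members with related CAST and B6 levels became 2 to 5 with a mouse left out, 2 without mouse 3 or mouse 4. The cause of these changes was not tested. At 149 counts per mouse, *Arntl* is the member whose ratio depth limits most.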

Other observations

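The genes whose totals ran most like those of *Arntl* or *Dbp* over the 7 mice were looked for among 9583 protein-coding genes that reached 100 counts in every mouse. They are the extremes of many correlations over 7 mice, so no p is given, and every level in a mouse comes from the same library. The highest r with *Arntl* was 0.96 for *Fam192a*, followed by *Mtmr4*, *Ttpal*, *Pnpla2* and *Dip2b* at 0.94 to 0.95. The lowest was -0.97 for A230050P20Rik, followed by *Kcne4*, *Ednrb*, *Pdzrn3* and *Dbp* at -0.94 to -0.91, so that *Dbp* ranked 5 from the lowest, and *Per3* ranked 20. With *Dbp*, the highest r was 0.97 for *Ahr*, which encodes the aryl hydrocarbon receptor, followed by *Pdzrn3*, *Smarca2*, *Kcne4* and *Zfp521* at 0.94 to 0.95. The lowest was -0.99 for *Cep85*, followed by *Tnfaip3*, a brake on NF-κB signalling, at -0.97, and *Sf3b3*, *Atp6v1a* and *Ankrd10* at -0.95.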
